A study of Mus musculus with 6 samples.

Results

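Glycolysis and hypoxia response genes were described in subcutaneous tumours of B16F10, a mouse melanoma line. They were taken as the rows of the deposited count table whose symbol is 1 of 36 names. All 36 names were found, in 37 of the 55349 rows, since Aldoa is listed under a pair of gene identifiers. The set holds carriers that bring glucose into the cell, the enzymes that turn glucose into pyruvate, the enzymes and carriers that make and move lactate, and genes induced when oxygen is low. The tested libraries came from 3 tumours labelled shSQLE, with the genotype given as SQLE knockdown (replicates 1, 2 and 5). They were set against 3 tumours labelled shControl, with the genotype given as WT (replicates 1, 4 and 5). Every tumour was of B16F10 cells and subcutaneous, and the labels give no added treatment. The sources used here do not state the age of the hosts, the hairpins, whether the lines were clones or whether each library is a separate animal. The p-values therefore weigh the difference between groups against the spread between libraries, and part of that spread may be technical.

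As background, glycolysis splits glucose into pyruvate in the cytosol, and lactate dehydrogenase turns pyruvate into lactate, which monocarboxylate carriers move across the plasma membrane. When oxygen is scarce, the transcription factor HIF-1 escapes destruction, binds hypoxia response elements and raises transcription of many glycolytic enzymes, of the glucose carrier Slc2a1 and of genes such as Vegfa, Car9 and Bnip3.

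Total expected counts lay between 18790360 and 19142185 in shSQLE and between 16408622 and 18587880 in shControl. Sqle, the knocked-down gene, had 70.4, 66.8 and 77.1 CPM (counts relative to the library total, scaled with TMM factors) in shSQLE replicates 1, 2 and 5, against 146, 151 and 148 CPM in shControl replicates 1, 4 and 5. Its groups did not overlap, with a log2 fold change of -1.05 (SE 0.17), and its adjusted p was 0.9996 in edgeR's quasi-likelihood test and 8.8e-05 in DESeq2. The melanocyte markers of the lists (8 of 8 detected in every library) summed to between 8927 and 11870 TPM (a scale per transcript length) in shSQLE and between 7471 and 10130 TPM in shControl, so the labelled cell type was seen in all 6 libraries. Host cells differed more between libraries. Summed over their markers, endothelium ranged from 14.5 to 32.4 TPM in shSQLE and from 16.3 to 64.3 TPM in shControl, and skeletal muscle from 34.3 to 1559 TPM in shSQLE and from 20.3 to 180 TPM in shControl. Adipocyte markers ranged from 19.5 to 42.2 TPM in shSQLE, against 173, 21.6 and 464 TPM in shControl replicates 1, 4 and 5. The shControl replicate 4 sum thus lay within the shSQLE range. All 5 of their tested genes had a fold change below 0 with an unadjusted p under 0.05 in edgeR, and 0 passed after adjustment. Of all tested genes 3.11% had such a p, and markers of 1 cell type may vary together. Red cell genes held 65020 TPM in shSQLE replicate 1, against 7408 to 20300 TPM in the other 5 libraries.

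Enzymes of the glycolytic trunk were among the most abundant transcripts of these tumours. The 37 rows together held 5.35% to 6.44% of all TPM in shSQLE and 5.28% to 7.27% in shControl. Gapdh, the enzyme that oxidises glyceraldehyde 3-phosphate, stood first with 28470 ± 3927 TPM in shSQLE and 25930 ± 6528 TPM in shControl (SD, n = 3 each). Aldoa, the aldolase of most tissues, followed with 7775 ± 814 TPM in shSQLE and 7795 ± 2058 TPM in shControl (SD, n = 3 each). Next in order of mean TPM came the enolase Eno1, the isomerase Tpi1, the pyruvate kinase Pkm, the lactate dehydrogenase Ldha, the phosphoglycerate kinase Pgk1, the isomerase Gpi1 and the mutase Pgam1. Neighbours in this order overlapped over the 6 libraries on the TPM scale, except at a pair of steps. The lowest library of Gapdh (20660 TPM) lay above the highest of Aldoa (9926 TPM), and the lowest of Pkm (3446 TPM) above the highest of Ldha (2942 TPM). Every gene of the hypoxia response was below these enzymes on the TPM scale. The most abundant of them was Bnip3, a mitochondrial protein of autophagy, with 234 ± 80.4 TPM in shSQLE and 364 ± 101 TPM in shControl (SD, n = 3 each), and Car9, a carbonic anhydrase at the cell surface, had 132 ± 38.2 TPM in shSQLE and 174 ± 67.3 TPM in shControl (SD, n = 3 each). The related Car12 was nearly silent, with 8, 6 and 3 expected counts in shSQLE replicates 1, 2 and 5 and 5, 5 and 7 in shControl replicates 1, 4 and 5.

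**Figure D1:**
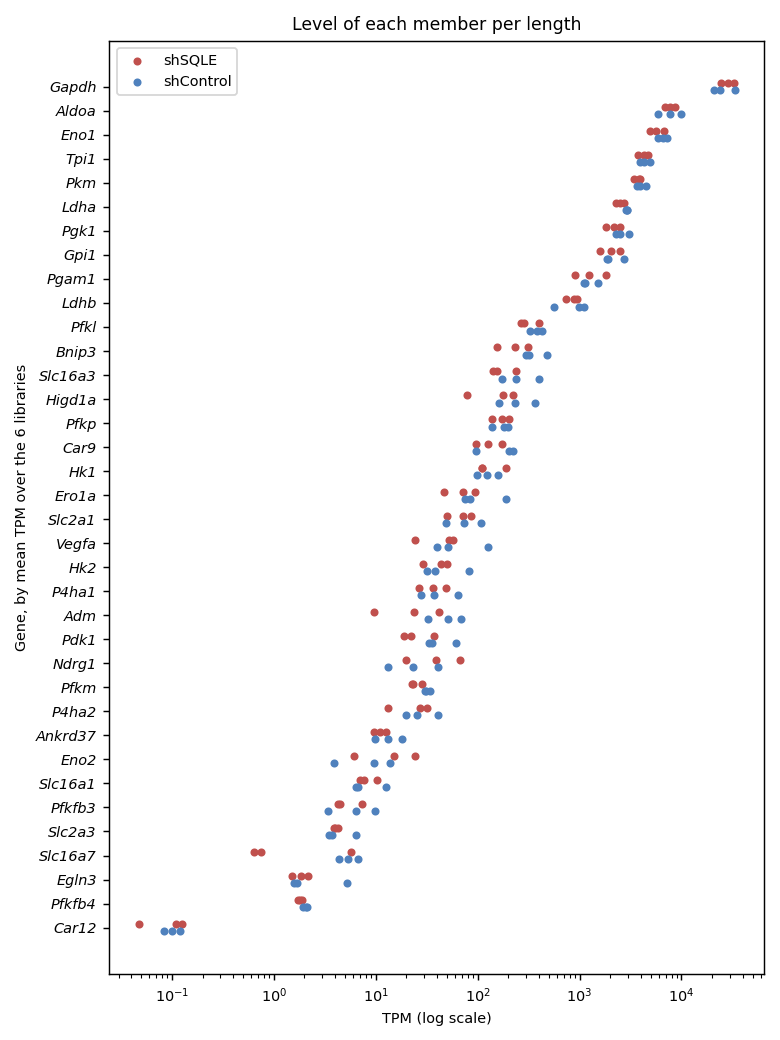
TPM of the 36 members on a log axis, ordered by the mean over the 6 libraries, with 1 point per library; shSQLE is drawn above shControl in each row. Gapdh lies alone at the top, Aldoa and Eno1 follow, and Car12 lies lowest; the second Aldoa row of the table is left out.

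No member passed the test between shSQLE and shControl. In edgeR's quasi-likelihood fit across 13268 genes, 35 of the 37 rows passed the filter on low counts (Car12 and the second Aldoa row did not), and 0 of the 35 had an adjusted p under 0.05, where 0% of all tested genes did. At an unadjusted p under 0.05 the members again numbered 0, against 3.11% of all tested genes, of which 1.62% were lower in shSQLE. DESeq2, which called 0.0452% of all tested genes, and limma voom called 0 members as well, with 0 members at an unadjusted p under 0.05 in DESeq2, where 471 of 13268 genes had one, and 2 in voom, where 374 of 13268 had. The adjusted p of every tested member was 0.9996 in edgeR. Sqle, the knocked-down gene, had the same adjusted p in that fit although its groups did not overlap. That 0 members passed therefore does not show that none of them differed. The log2 fold change was below 0 for 26 of the 35 members and above 0 for 9, where 52.6% of all tested genes were below 0. Their median was -0.13, against -0.02 over all tested genes. With library size alone 29 of 35 were below 0, where 62.0% of all genes were, and the all-gene median was -0.08. In bulk tumour RNA, fewer cells of a type and less RNA per cell cannot be told apart.

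**Figure D2:**
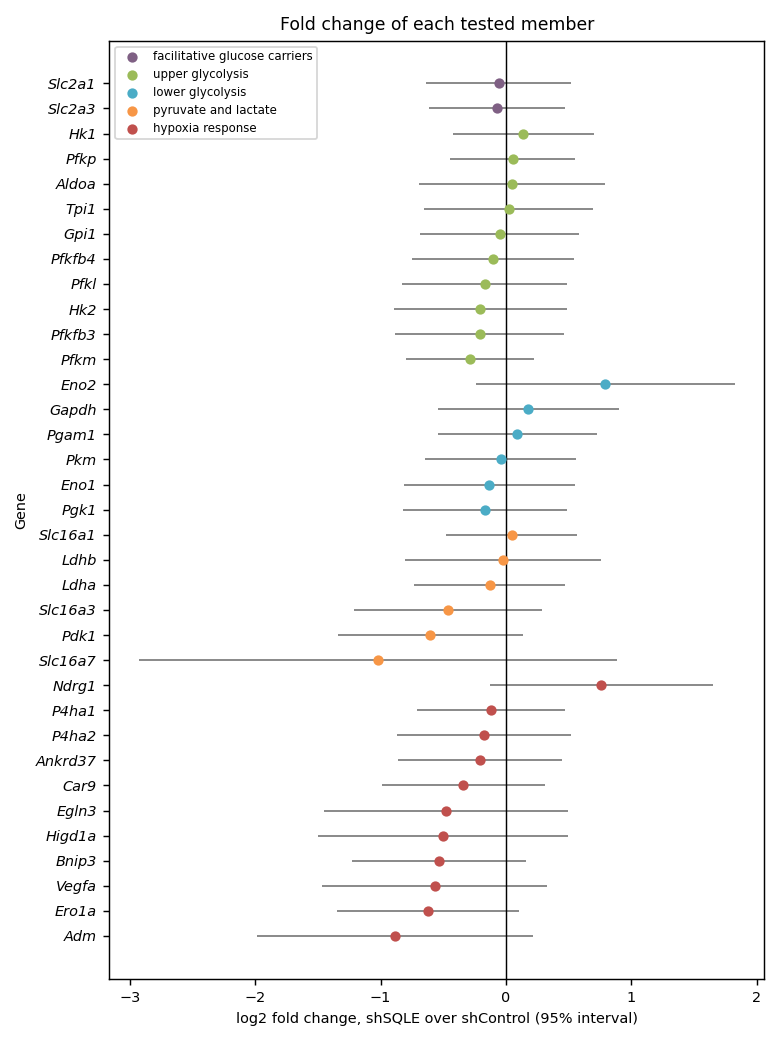
Log2 fold change of the 35 tested members, shSQLE over shControl, from edgeR's quasi-likelihood fit, with 95% intervals, colored by role. All 35 intervals include 0; the hypoxia response genes other than Ndrg1 lie left of 0, and Eno2 and Ndrg1 have the largest values to its right.

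Most genes of the hypoxia response had fold changes below 0, and the libraries of each group were widely spread. Of the 11 tested hypoxia response genes, 10 had a log2 fold change below 0 and 1 above, with a median of -0.48, and 0 passed the test. Ero1a, an oxidase that helps form disulfide bonds in the endoplasmic reticulum, had 189, 186 and 119 CPM in shSQLE replicates 1, 2 and 5, against 376, 190 and 193 CPM in shControl replicates 1, 4 and 5. It was the only one of the 35 tested members whose groups did not overlap, where 6.43% of all tested genes did not. All shSQLE libraries were below shControl for 3.35% of all tested genes and above for 3.08%. The nearest libraries of Ero1a were shSQLE replicate 1 at 189.3 CPM and shControl replicate 4 at 189.8 CPM. Its log2 fold change was -0.62 (SE 0.32, adjusted p = 0.9996 in edgeR), and its groups overlapped once libraries were scaled by size alone. Adm, which encodes the vessel-dilating peptide adrenomedullin, had 51.4, 21.9 and 11.2 CPM in shSQLE replicates 1, 2 and 5, against 63.1, 38.4 and 54.5 CPM in shControl replicates 1, 4 and 5. Replicates 2 and 5 of shSQLE lay below all shControl libraries and replicate 1 among them, for a log2 fold change of -0.88 (SE 0.48, adjusted p = 0.9996 in edgeR). Bnip3 showed the same placing, at 406, 229 and 190 CPM in shSQLE replicates 1, 2 and 5, against 465, 395 and 333 CPM in shControl replicates 1, 4 and 5 (log2 fold change -0.53, SE 0.31).

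Vegfa, the main growth factor of vessels, had 111, 93.3 and 49.8 CPM in shSQLE replicates 1, 2 and 5, against 200, 82.2 and 94.3 CPM in shControl replicates 1, 4 and 5. Only shSQLE replicate 5 lay below the shControl range, and shControl replicate 1 stood above the other 5 libraries. Its log2 fold change was -0.57 (SE 0.39) with a 95% interval from -1.46 to 0.32. Car9 had 226, 234 and 165 CPM in shSQLE replicates 1, 2 and 5, against 273, 169 and 349 CPM in shControl replicates 1, 4 and 5 (log2 fold change -0.34, SE 0.29), so the groups overlapped. Higd1a, a mitochondrial protein of the respiratory chain, had 258, 70.4 and 198 CPM in shSQLE replicates 1, 2 and 5, against 317, 264 and 165 CPM in shControl replicates 1, 4 and 5. Its low value in shSQLE replicate 2 was below every other library. Egln3, a prolyl hydroxylase that marks HIF for destruction, was at 3.89, 3.60 and 5.35 CPM in shSQLE replicates 1, 2 and 5, against 10.1, 4.19 and 3.61 CPM in shControl replicates 1, 4 and 5. The collagen prolyl hydroxylase subunits P4ha1 (log2 fold change -0.12, SE 0.26) and P4ha2 (-0.17, SE 0.31) and the ankyrin repeat gene Ankrd37 (-0.21, SE 0.29) had smaller differences, and their groups overlapped.

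Ndrg1, a stress-induced gene, was the one hypoxia response gene with a fold change above 0. It had 55.9, 143 and 106 CPM in shSQLE replicates 1, 2 and 5, against 85.9, 35.6 and 57.8 CPM in shControl replicates 1, 4 and 5. Replicates 2 and 5 of shSQLE were above all shControl libraries and replicate 1 lay between them, with a log2 fold change of 0.76 (SE 0.39, adjusted p = 0.9996 in edgeR). Expected counts of Ndrg1, Slc16a3, Higd1a, Pkm and Pfkp were not whole in at least 1 library, so some of their reads may be shared with other genes.

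shControl replicate 1 weighed most on the hypoxia response values. It was the highest of the 6 libraries for 16 of the 35 members, where it was the highest for 26.5% of all tested genes, and among those 16 were 9 of the 11 tested hypoxia response genes. shSQLE replicate 5 was the lowest for 8 members (18.6% of all genes), 7 of them of the hypoxia response. Without shControl replicate 1 the hypoxia response genes were below 0 for 7 of 11, with a median log2 fold change of -0.08 in place of -0.48, and the medians of upper and lower glycolysis were then lower, at -0.16 and -0.10. Without shSQLE replicate 5 they were below 0 for 8 of 11, with a median of -0.29. The library with the most endothelial and fibroblast marker RNA was also shControl replicate 1, with 64.3 TPM for endothelium and 147 TPM for fibroblasts, against at most 34.4 and 99.3 TPM in the other 5 libraries. The 6 libraries had macrophage marker sums of 84.9 to 471 TPM in shSQLE and 155 to 580 TPM in shControl, and the part of these cells in the hypoxia values was not tested.

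**Figure D3:**
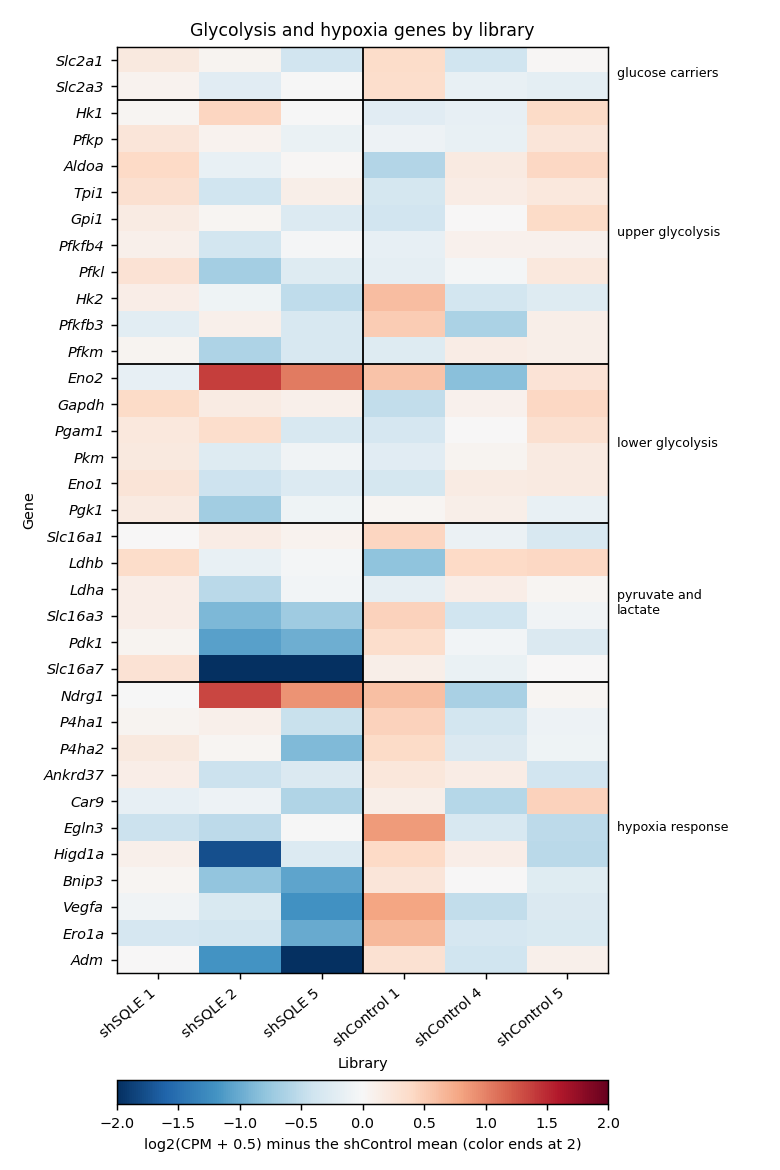
Log2(CPM + 0.5) of each tested member minus its mean over the shControl libraries, with 1 column per library and genes grouped by role; red is higher and blue lower, and colors end at 2 in either direction. Blue cells gather in shSQLE replicates 2 and 5, whereas shSQLE replicate 1 is pale, and 9 of the 11 hypoxia response genes are highest in shControl replicate 1.

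Promoter windows are given for the 4 members with a fold change below 0 and the smallest unadjusted p, and for Eno2, the member with the largest fold change above 0. Each is RefSeq sequence of the mouse build GRCm38.p6 from 250 bases before to 50 bases after the start of the gene, read 5′ to 3′ on the gene's strand. The counts were made on another build, so windows were matched by symbol alone and these positions are not those of the count table. The windows are Ero1a at chr14:45318523-45318822 (minus strand), Pdk1 at chr2:71872974-71873273 (plus strand, the first of 2 listed starts), Adm at chr7:110627407-110627706 (plus strand), Bnip3 at chr7:138909457-138909756 (minus strand) and Eno2 at chr6:124769624-124769923 (minus strand). Capitals mark the core letters of a hypoxia response element, ACGTG or GCGTG, on either strand, so that CACGT and CACGC mark the opposite strand.
Ero1a: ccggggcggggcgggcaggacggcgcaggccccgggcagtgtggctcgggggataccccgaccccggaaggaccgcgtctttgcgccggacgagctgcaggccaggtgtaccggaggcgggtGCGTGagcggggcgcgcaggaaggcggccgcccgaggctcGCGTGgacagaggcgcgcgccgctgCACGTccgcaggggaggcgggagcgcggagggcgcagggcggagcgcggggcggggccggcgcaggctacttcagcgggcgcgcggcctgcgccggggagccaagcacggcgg
Pdk1: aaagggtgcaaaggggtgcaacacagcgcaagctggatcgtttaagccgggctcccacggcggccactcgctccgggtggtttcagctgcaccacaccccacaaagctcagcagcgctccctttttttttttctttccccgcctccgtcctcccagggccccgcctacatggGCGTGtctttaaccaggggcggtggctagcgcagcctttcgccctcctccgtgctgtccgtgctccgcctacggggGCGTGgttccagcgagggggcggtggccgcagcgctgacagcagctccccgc
Adm: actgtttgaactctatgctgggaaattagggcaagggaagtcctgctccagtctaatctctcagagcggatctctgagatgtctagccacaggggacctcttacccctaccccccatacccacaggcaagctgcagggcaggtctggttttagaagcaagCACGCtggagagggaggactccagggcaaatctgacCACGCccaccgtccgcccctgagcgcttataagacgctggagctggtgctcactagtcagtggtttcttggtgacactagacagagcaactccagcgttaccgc
Bnip3: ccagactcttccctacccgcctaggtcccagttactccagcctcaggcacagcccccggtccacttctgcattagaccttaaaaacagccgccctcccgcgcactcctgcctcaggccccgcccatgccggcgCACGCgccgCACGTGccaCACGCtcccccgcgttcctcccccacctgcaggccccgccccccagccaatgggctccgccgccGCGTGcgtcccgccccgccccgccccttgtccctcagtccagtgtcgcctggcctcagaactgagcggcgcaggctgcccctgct
Eno2: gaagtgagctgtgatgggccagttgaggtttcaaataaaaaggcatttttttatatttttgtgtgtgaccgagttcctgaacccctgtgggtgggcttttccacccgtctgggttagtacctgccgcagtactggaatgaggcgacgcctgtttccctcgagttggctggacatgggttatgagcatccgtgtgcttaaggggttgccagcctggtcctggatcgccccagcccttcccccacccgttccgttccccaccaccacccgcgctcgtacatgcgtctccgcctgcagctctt
Ero1a held 3 matches, at positions -128, -88 and -63 from the start, Pdk1 held 2 in the window shown and 0 in that of its other listed start, and Adm held 2, at -90 and -54. Bnip3 held 5 matches, of which 2 are the same CACGTG stretch read on both strands, a stretch that is also the letters of an E-box. The Eno2 window held 0, as did those of Gpi1, Tpi1 and Car12, which says only that these letters are not in their 300 bases. Apart from Eno2 and Tpi1, every member above 0 with a window held matches in at least 1 window. Hk1 and Slc16a1 held 5 in a single window, Pfkp 4, Gapdh and Pgam1 3 each, and Aldoa 1. Gpi1, with 0 matches, had a fold change below 0, so matches did not follow the sign. Ndrg1, above 0 with a smaller unadjusted p than Eno2 in edgeR, had no window to read. Over all members, 33 of the 36 genes had a window, and 36 of their 46 windows (78.3%) held at least 1 of the 2 motifs, against 43.8% of 32841 windows of all genes. Some windows of the same gene overlap and share matches, as for Eno1, Aldoa and Pfkm. The set also includes genes chosen as induced when oxygen is low. Member windows were richer in G and C, with a median of 62.1% against 52.7%, and in CpG, with a median of 20 against 7 per window, and both motifs contain a CpG. The matches are a description of letters and not of binding.

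Glucose carriers and the enzymes of upper glycolysis had fold changes near 0, with intervals that reached well to either side. Slc2a1, the basal glucose carrier, had 203, 185 and 137 CPM in shSQLE replicates 1, 2 and 5, against 231, 134 and 182 CPM in shControl replicates 1, 4 and 5, a log2 fold change of -0.06 (SE 0.25). The high-affinity carrier Slc2a3 was at -0.07 (SE 0.24), and the groups overlapped for either carrier. Without shControl replicate 1 both carriers were above 0, with a median of 0.14. Of the 10 tested genes of upper glycolysis, 4 had a fold change above 0 and 6 below, with a median of -0.08 and a range from -0.28 to 0.14, and 0 passed the test. Hk2, the hexokinase that HIF-1 induces, had 233, 201 and 149 CPM in shSQLE replicates 1, 2 and 5, against 329, 165 and 178 CPM in shControl replicates 1, 4 and 5. Hk1, the hexokinase of most tissues, had 419, 548 and 405 CPM in shSQLE replicates 1, 2 and 5, against 350, 362 and 533 CPM in shControl replicates 1, 4 and 5. The kinases were thus spread in both groups, with the highest Hk2 value in shControl replicate 1, where Hk1 was lowest. Pfkm, the muscle form of phosphofructokinase, had the lowest fold change of these enzymes, with 79.4, 49.6 and 61.5 CPM in shSQLE replicates 1, 2 and 5, against 64.0, 84.6 and 83.1 CPM in shControl replicates 1, 4 and 5 (log2 fold change -0.28, SE 0.23). The liver form Pfkl had 1438, 729 and 979 CPM in shSQLE replicates 1, 2 and 5, against 1037, 1141 and 1358 CPM in shControl replicates 1, 4 and 5. Here shSQLE replicate 1 lay above the shControl range and the other two shSQLE libraries below it. The bifunctional enzymes that set the level of the activator fructose 2,6-bisphosphate, Pfkfb3 (log2 fold change -0.21, SE 0.30) and Pfkfb4 (-0.10, SE 0.28), were low throughout, at no more than 33.9 and 5.52 CPM in any library.

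The trunk from Gapdh to Pkm had no common direction. Of the 6 tested genes of lower glycolysis, 3 had a fold change above 0 and 3 below, with a median of 0.02, and 0 passed the test. Gapdh had 31330, 27110 and 25890 CPM in shSQLE replicates 1, 2 and 5, against 17090, 25470 and 32030 CPM in shControl replicates 1, 4 and 5. Its lowest and its highest library were both shControl, and its log2 fold change was 0.18 (SE 0.32, 95% interval from -0.55 to 0.90). Pgk1, which makes the first ATP of the pathway, had 4254, 2316 and 3534 CPM in shSQLE replicates 1, 2 and 5, against 3876, 4083 and 3385 CPM in shControl replicates 1, 4 and 5. Eno2, the enolase of neurons and neuroendocrine cells, was the exception in size, at 12.9, 39.0 and 30.4 CPM in shSQLE replicates 1, 2 and 5, against 21.8, 7.91 and 17.8 CPM in shControl replicates 1, 4 and 5. Replicates 2 and 5 of shSQLE were above all shControl libraries and replicate 1 lay among them, with a log2 fold change of 0.79 (SE 0.46, adjusted p = 0.9996 in edgeR). On the TPM scale Eno2 was still at most 0.437% of the Eno1 and Eno2 sum in any library.

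Among the genes of pyruvate and lactate, Slc16a7 separated the libraries most. Slc16a7 encodes MCT2, a carrier with high affinity for pyruvate and lactate. It had 20.6, 2.08 and 2.21 CPM in shSQLE replicates 1, 2 and 5, against 18.3, 15.3 and 16.9 CPM in shControl replicates 1, 4 and 5. Behind these stand 366, 41 and 40 expected counts in shSQLE replicates 1, 2 and 5, against 335, 260 and 309 in shControl replicates 1, 4 and 5. The shSQLE libraries thus split, with replicate 1 above the shControl range and replicates 2 and 5 far below it. The log2 fold change over all libraries was -1.02 (SE 0.82, 95% interval from -2.93 to 0.88, adjusted p = 0.9996 in edgeR). Without shSQLE replicate 1 it was -2.97 (SE 0.31, adjusted p = 0.0128 in edgeR). Slc16a7 was then the only member past the threshold, while the count over all genes was 31. That fit leaves out the shSQLE library that lay above the shControl range, so its p cannot decide whether the groups differ. Slc16a7 passed in no other fit. Limma voom with all libraries gave -1.90 for Slc16a7. Slc16a3, the lactate exporter MCT4 that HIF-1 induces, had 422, 207 and 235 CPM in shSQLE replicates 1, 2 and 5, against 529, 294 and 369 CPM in shControl replicates 1, 4 and 5. Replicates 2 and 5 were again below the shControl range and replicate 1 was within it (log2 fold change -0.46, SE 0.33). Slc16a1, which encodes MCT1, had 31.5, 34.8 and 33.0 CPM in shSQLE replicates 1, 2 and 5, against 42.5, 28.9 and 24.9 CPM in shControl replicates 1, 4 and 5, with a log2 fold change of 0.05 (SE 0.23).

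Pdk1, a kinase that shuts off pyruvate dehydrogenase and so keeps pyruvate from the mitochondria, had 110, 50.1 and 53.8 CPM in shSQLE replicates 1, 2 and 5, against 136, 102 and 87.0 CPM in shControl replicates 1, 4 and 5. It was placed like Slc16a3, with a log2 fold change of -0.60 (SE 0.33, adjusted p = 0.9996 in edgeR). Ldha, the main lactate dehydrogenase subunit of tumours, had 3821, 2403 and 3371 CPM in shSQLE replicates 1, 2 and 5, against 3077, 3824 and 3596 CPM in shControl replicates 1, 4 and 5 (log2 fold change -0.13, SE 0.27). Ldhb, the subunit of heart, had 1027, 721 and 770 CPM in shSQLE replicates 1, 2 and 5, against 453, 1046 and 1059 CPM in shControl replicates 1, 4 and 5 (-0.02, SE 0.34). Overlap of the groups depended on the scale for a few genes. On the TPM scale Ldha, Pfkm and Pfkfb4 had all shSQLE libraries below all shControl libraries, 3 of 35 members where 4.61% of all tested genes did, and Ero1a did not. Ldha then had 2735, 2266 and 2522 TPM in shSQLE replicates 1, 2 and 5, against 2933, 2829 and 2942 TPM in shControl replicates 1, 4 and 5. With library size alone 0 members had all shSQLE libraries lower, where 4.77% of all tested genes did.

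**Figure D4:**
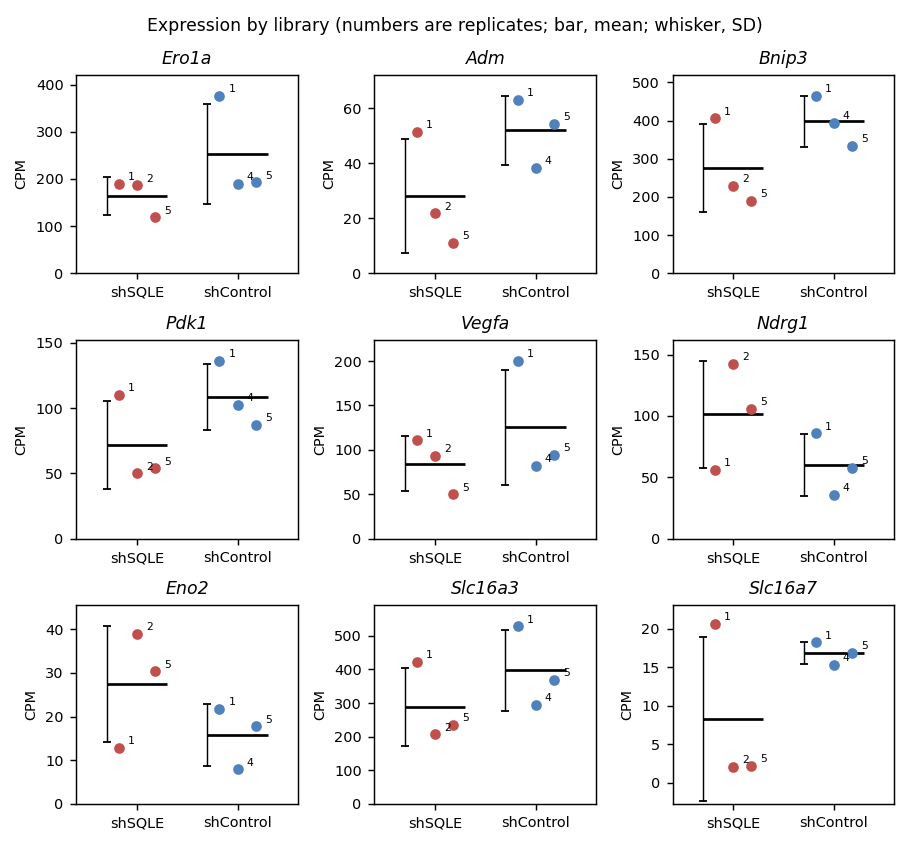
CPM of 9 members in each library, shSQLE left of shControl in each panel, with replicate numbers beside the points, the group mean as a bar and the SD as a whisker. Slc16a7 is near 2 CPM in shSQLE replicates 2 and 5 and between 15.3 and 20.6 CPM in the other 4 libraries; Ndrg1 and Eno2 are highest in shSQLE replicate 2.

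shSQLE replicate 1 stood nearer to shControl than the other shSQLE libraries, across the 35 tested members and across all tested genes alike. Its value lay within the shControl range for 27 members, where 66.8% of all tested genes did. For shSQLE replicate 2 this was 13 members (48% of all genes) and for shSQLE replicate 5 it was 20 members (51.5%). Replicate 2 was below the shControl range for 18 members and above it for 4, and replicate 5 was below for 13 and above for 2. Both were below it for 8 members (Pfkl, Pfkm, Pdk1, Slc16a3, Slc16a7, Adm, Bnip3 and Ero1a), where 10.9% of all tested genes were, and for 5 of the 8 replicate 1 lay within the range, where 5.79% of all tested genes did so. Sqle itself was as low in replicate 1 as in replicates 2 and 5. Replicate 1 also held the least marker RNA of the 6 libraries for macrophages (84.9 TPM), fibroblasts (12.4 TPM), endothelium (14.5 TPM), adipocytes (19.5 TPM) and T and NK cells (0.217 TPM), and the most for red cells. The part of these in its placing was not tested. Without it 7 members had an unadjusted p under 0.05 in edgeR, where 897 of 13648 genes had. They were Slc16a7, Adm, Pdk1, Bnip3, Ndrg1, Eno2 and Slc16a3, and only Slc16a7 passed after adjustment. For each of the 7, replicate 1 was placed otherwise than replicates 2 and 5, so these p-values cannot decide whether the groups differ.

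Choice between isozymes was compared as a share within each library on the TPM scale, for 10 shares, and the groups overlapped for each. The smallest exact two-sided permutation p was 0.3, and after Benjamini-Hochberg adjustment over the 10 shares it was 0.875. With 3 libraries against 3 this test gives 0.1 at the least, so no share could have reached 0.05. Ldhb made up 25.7%, 27.8% and 22.7% of the lactate dehydrogenase sum in shSQLE replicates 1, 2 and 5, against 15.9%, 26.0% and 27.5% in shControl replicates 1, 4 and 5. Hk2 made up 28.6%, 20.9% and 20.9% of the hexokinase sum in shSQLE replicates 1, 2 and 5, against 40.3%, 24.6% and 19.4% in shControl replicates 1, 4 and 5. In both families shControl replicate 1 was the library apart, with the highest share of Hk2 and the lowest of Ldhb. Pfkp took 33.9% ± 6.54 of phosphofructokinase in shSQLE and 29.6% ± 1.52 in shControl (SD, n = 3 each), with 41.4% in shSQLE replicate 2. Pfkm took 4.86% ± 0.24 in shSQLE and 5.50% ± 0.68 in shControl (SD, n = 3 each), and Pfkl the rest. Slc16a3 took 94.2% ± 0.81 of the lactate carrier sum in shSQLE and 94.9% ± 0.80 in shControl (SD, n = 3 each). Slc2a3 stood at 5.72% ± 1.33 of the glucose carrier sum in shSQLE and 5.72% ± 0.90 in shControl (SD, n = 3 each). P4ha2, with 38.4% ± 4.79 in shSQLE and 40.3% ± 1.31 in shControl, and Pfkfb4, with 26.2% ± 5.94 in shSQLE and 26.2% ± 9.56 in shControl, had overlapping groups (SD, n = 3 each). Car9 made up over 99% of the Car9 and Car12 sum in each library.

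**Figure D5:**
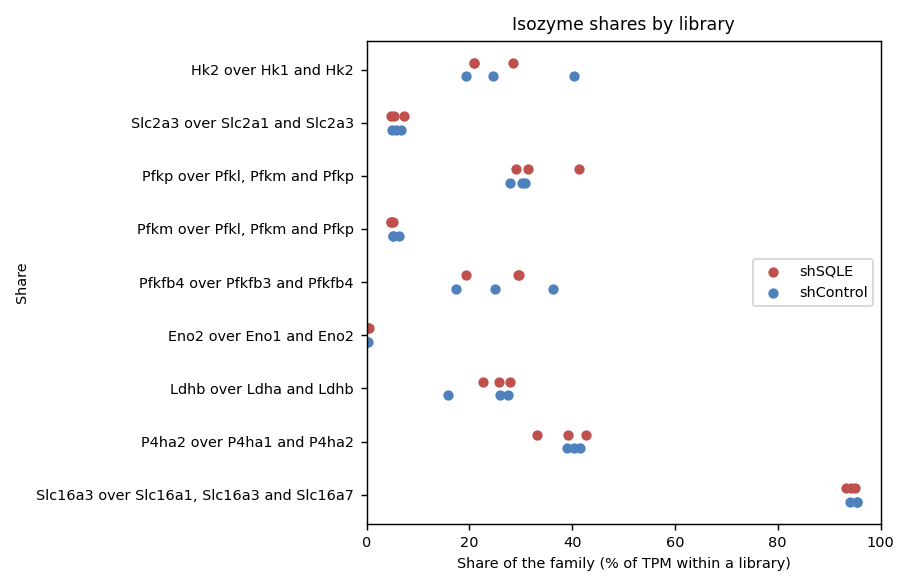
Share of 1 isozyme in the TPM sum of its family (x axis, percent) for 9 of the 10 shares compared, with 1 point per library and shSQLE above shControl in each row. The groups overlap in every row; the Car9 share, over 99% in each library, is not drawn.

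Other genes of the same pathways were read from lists chosen alongside the members, and 0 of them passed the test in either direction. Of 10 tested HIF factors and oxygen sensors, 7 had a fold change below 0, with a median of -0.18. Hif1a, the oxygen-regulated subunit of HIF-1, had 160, 155 and 109 CPM in shSQLE replicates 1, 2 and 5, against 254, 165 and 177 CPM in shControl replicates 1, 4 and 5 (log2 fold change -0.49, SE 0.25). On the CPM scale all shSQLE libraries were below all shControl libraries, as for 3.35% of all tested genes. The nearest were shSQLE replicate 1 at 160.1 CPM and shControl replicate 4 at 165.1 CPM. On the TPM scale the groups overlapped, with 45.1 TPM in shSQLE replicate 2 against 37.6 TPM in shControl replicate 4. Cited2, which competes with HIF-1 for its coactivators, had 315, 180 and 139 CPM in shSQLE replicates 1, 2 and 5, against 272, 332 and 371 CPM in shControl replicates 1, 4 and 5 (-0.62, SE 0.31). Of 28 further hypoxia-induced genes, 23 were below 0 with a median of -0.33, where 52.6% of all tested genes were below 0. An unadjusted p under 0.05 was seen for 3.11% of all tested genes and for 2 of the 28, both lower. These were the lipoprotein receptor Vldlr, at 0.51, 0.10 and 0.22 CPM in shSQLE replicates 1, 2 and 5 against 2.89, 0.77 and 1.09 CPM in shControl replicates 1, 4 and 5 (log2 fold change -2.51, SE 0.72, on no more than 9 counts in any shSQLE library), and the lysyl oxidase Loxl2 (-1.11, SE 0.46). The adjusted p of each was 0.9996 in edgeR. Over the list of further hypoxia-induced genes, untested ones included, mean log2 CPM was highest in shControl replicate 1. It was lowest in shControl replicate 4, at 4.858, close to 4.865 and 4.869 in shSQLE replicates 2 and 5, with 4.988 in shSQLE replicate 1. How far the fold changes of this list rest on shControl replicate 1 was not tested.

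Of 11 tested isozymes outside the members, 7 were below 0 with a median of -0.06. Pgam2, the mutase of muscle, had 0.96, 1.01 and 20.7 CPM in shSQLE replicates 1, 2 and 5, against 0.54, 3.42 and 1.20 CPM in shControl replicates 1, 4 and 5. The skeletal muscle markers summed to 1559 TPM in shSQLE replicate 5 and to at most 180 TPM in any other library, and their part in this value was not tested. Without that library the log2 fold change of Pgam2 was -0.79 in place of 2.14. Hk3, a hexokinase of myeloid cells, was at -0.99 (SE 0.64). Of 11 genes that bring pyruvate into mitochondrial oxidation, 7 were below 0 with a median of -0.09, and the smallest p were those of the dehydrogenase subunit Dld (-0.21, SE 0.20) and the kinase Pdk3 (-0.23, SE 0.24). Of 8 pentose phosphate genes, 5 were below 0 with a median of -0.06. H6pd, the glucose 6-phosphate dehydrogenase of the endoplasmic reticulum, was at -0.73 (SE 0.27, unadjusted p = 0.0252, adjusted p = 0.9996 in edgeR) and the isomerase Rpia at 0.44 (SE 0.26). Of 12 genes of acid export, 8 were below 0 with a median of -0.14. The carrier chaperone Emb was at -0.25 (SE 0.17), and the carbonic anhydrase Car2 had 18.98, 2.39 and 0.66 CPM in shSQLE replicates 1, 2 and 5, against 3.16, 2.42 and 0.55 CPM in shControl replicates 1, 4 and 5. Car2 is abundant in red cells, and its high library was the one with the most red cell RNA, whose part was not tested. Without shSQLE replicate 1 its log2 fold change was -0.41 in place of 1.84.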

How the data were processed

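Per the labels' protocols, total RNA of 6 subcutaneous tumours was read in pairs on the DNBSEQ-T7 platform. The authors deposited 1 table of expected counts per gene, beside each gene's length and effective length. FastQC, STAR, RSEM, DESeq2 and the build GRCm39 are named in the submitters' processing notes, without versions; the sources used here name no annotation release, no settings and no use of strand. Between 11.4% and 12.7% of values above 0 were not whole, since such counts divide reads between similar genes, so paralogs may share reads. Groups and replicate numbers came from the titles. No pair of libraries of a group was alike within sampling noise.

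Counts were rounded and filtered with filterByExpr (minimum count 10, minimum total 15), which left 13268 genes. Scaling used TMM factors (0.928 to 1.12). Groups were tested with glmQLFit (robust=TRUE) with glmQLFTest in edgeR 4.0.16 (R 4.3.3), group as the only term, p-values adjusted by Benjamini-Hochberg over all tested genes, threshold 0.05. An SE is the absolute fold change over the root of F. TPM were computed from expected counts and effective length, and shares from TPM with an exact two-sided permutation test. The fit was run on simulated counts with known changes and the same spread set for every gene. It therefore does not show how well changes are called in these libraries. Alternatives were other scalings and filters, DESeq2 1.42.0, limma voom 3.58.1, robust=FALSE, a block for the replicate number, and fits that leave out 1 library each. The genes named are Sqle, all members, and from each further list the 2 tested genes with the smallest p; Slc2a4 was chosen after its values were seen. Members, lists and tests were chosen with earlier results of these data known. Figures were drawn with matplotlib 3.10.9.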

Additional observations from a re-analysis of the deposited data

How the results depend on the processing

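Members past the threshold numbered 0 under every alternative but 1, since without each library in turn they ranged from 0 to 1, the 1 being Slc16a7 without shSQLE replicate 1. Over all genes the count was 0 as reported, 6 with DESeq2, 41 with the replicate block, and from 0 to 31 without each library in turn, the 31 without shSQLE replicate 1. The median log2 fold change of the members stayed below 0 throughout, from -0.20 with library size alone to -0.05 with the replicate block, and from -0.28 to -0.07 without each library. The groups share replicate numbers 1 and 5 only. In the fit with the block, shSQLE replicate 2 and shControl replicate 4 each had a term of their own. Its group effect and its counts therefore rest on the libraries numbered 1 and 5. Deviations of same-numbered libraries from their group means correlated at -0.13 for number 1 and 0.05 for number 5 across genes, so the libraries share a number and are not treated as pairs; with the block 4 members (Vegfa, Ero1a, Car9 and Adm) had an unadjusted p under 0.05, where 1094 of 13268 genes had. The sign of the fold change was the same under all 15 alternatives for 13 of the 35 members and turned under at least 1 for 22.

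Under the scalings, Tpi1 turned to -0.0095 with upper quartile and -0.04 with library size alone, where Pfkp was -0.0071 and Slc16a1 -0.0339; Ldhb was 0.0606 with voom. With the replicate block the values that turned were Hk1 -0.0692, Pfkp -0.0219, Pfkfb4 0.0826, Pgk1 0.10, Pgam1 -0.0469, Eno1 0.0772, Pkm 0.0854, Ldha 0.11, Ldhb 0.36 and Slc16a1 -0.0124. Without each library in turn the ranges that crossed 0 were these: Tpi1 from -0.14 to 0.20, Pfkp from -0.0405 to 0.19, Slc16a1 from -0.11 to 0.30, Ldhb from -0.33 to 0.16, Hk1 from -0.0092 to 0.36, Pfkfb4 from -0.21 to 0.0341, Pgk1 from -0.37 to 0.045, Pgam1 from -0.0574 to 0.27, Pkm from -0.17 to 0.0594, Ldha from -0.28 to 0.0421, Aldoa from -0.19 to 0.26, Slc2a3 from -0.17 to 0.13, Slc2a1 from -0.23 to 0.15, Gpi1 from -0.22 to 0.16, Pfkl from -0.46 to 0.0388, P4ha1 from -0.28 to 0.15, P4ha2 from -0.38 to 0.10, Hk2 from -0.38 to 0.18, Pfkfb3 from -0.47 to 0.0766, Gapdh from -0.0312 to 0.40, Egln3 from -0.74 to 0.14, and outside the members Car2 from -0.41 to 2.38 and Pgam2 from -0.79 to 3.11. The cause was not tested. Of the shares, only that of Slc16a3 moved by more than its spread, to a difference of -1.87 percentage points in counts not divided by length, against -0.69 on the TPM scale. The groups had 3 libraries each, and the biological coefficient of variation was 30.4%.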

Other observations

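Slc2a4, the insulin-responsive glucose carrier of muscle and fat, was split like Slc16a7, and it was picked once its values were known. It had 70.4, 9.64 and 13.02 CPM in shSQLE replicates 1, 2 and 5, against 45.6, 53.4 and 66.7 CPM in shControl replicates 1, 4 and 5, so that shSQLE replicate 1 was the highest library and shSQLE replicates 2 and 5 the lowest. Its log2 fold change was -0.83 (SE 0.69, adjusted p = 0.9996 in edgeR). Adipocyte markers summed to 19.5, 35.0 and 42.2 TPM in shSQLE replicates 1, 2 and 5, against 173, 21.6 and 464 TPM in shControl replicates 1, 4 and 5. Skeletal muscle markers summed to 34.3, 91.2 and 1559 TPM in shSQLE replicates 1, 2 and 5, against 22.9, 180 and 20.3 TPM in shControl replicates 1, 4 and 5. The part of either in the Slc2a4 values was not tested.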
